A study of Mus musculus with 7 samples.

Results

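Serpins are a family of secreted and intracellular proteins, most of which trap a serine protease by offering it an exposed loop, the reactive centre loop, as bait. Clade A holds the extracellular serpins, and hepatocytes secrete many of them into plasma. Mice carry several copies of genes that are single in people, including the Serpina1 genes for alpha1-antitrypsin and the Serpina3 genes for relatives of alpha1-antichymotrypsin. Not all members inhibit proteases: Serpina6 encodes the plasma carrier of glucocorticoids. Serpina12 encodes vaspin, first described as a product of visceral fat and known to inhibit the kallikrein Klk7.

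The 10 clade A serpin genes chosen by symbol (Serpina1a, Serpina1b, Serpina1c, Serpina1d, Serpina1e, Serpina3k, Serpina3m, Serpina3n, Serpina6 and Serpina12) were followed in liver RNA among 51426 genes counted in each mouse. The livers came from 3 WT and 4 TET1 KO male mice, labelled C57BL/6J, which all received a high-fat diet (HFD) for 16 weeks from 8 weeks of age. The knockout was whole-body, so every tissue carried the deletion, and the methods list a Tet1 line of B6 and 129S4 background among the animals used. Library totals lay between 15005277 and 22746138 counts. The targeted gene, Tet1, had 1 to 4 counts in every library of both genotypes, so its level did not check the labels. Hepatocyte markers dominated all 7 livers, with a summed level of 6 markers between 57984 and 78952 CPM (counts scaled to library size, normalized by TMM). In bulk RNA, fewer cells of a type and less RNA per cell cannot be told apart.

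All 10 genes were well measured, together holding 1.73% to 2.49% of all counts, and all 10 passed the filter on low counts. Serpina12 was the only one called by edgeR's quasi-likelihood test, at an adjusted p under 0.05, and it was 2.69-fold higher in TET1 KO livers. No member was called lower. Over all 14754 genes tested, 0.874% were called higher and 1.15% lower, which were 129 and 169 genes. Scaled to library size only, 107 were called higher and 312 lower, and Serpina12 was again the member called. The alpha1-antitrypsin gene Serpina1e differed up to 19.6-fold between single livers, without separating the genotypes. The most abundant members, Serpina1c, Serpina1b and Serpina3k, had log2 fold changes between 0.10 and 0.44, none of them called. The median log2 fold change of the 10 genes was 0.13, beside 0.01 over all tested genes, and 7 of the 10 values were positive.

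**Figure D1:**
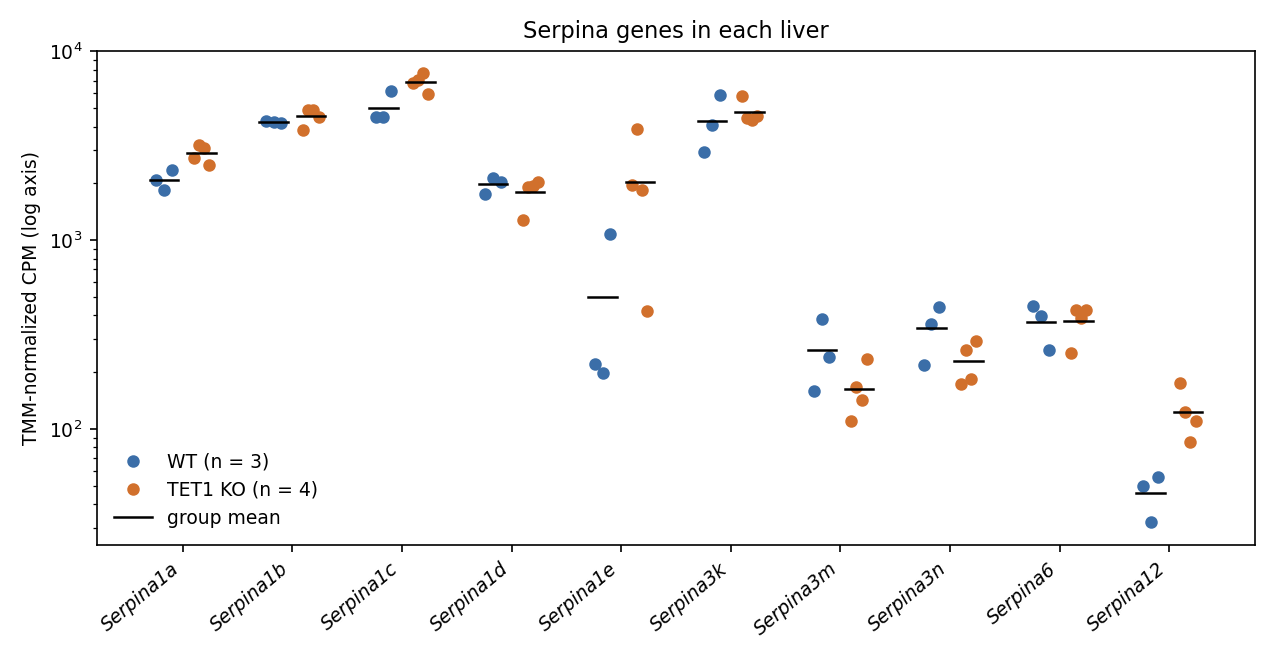
TMM-normalized CPM on a log axis for the 10 genes, with 1 point per liver in replicate order (blue, WT, n = 3, orange, TET1 KO, n = 4) and black lines at group means. Serpina12 and Serpina1a are the genes whose TET1 KO points all lie above the WT points, and Serpina1e spreads from 197 to 3870 CPM.

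The genes lie together on chromosome 12, within 767.705 kb (GRCm38.p6, chr12:103646630-104414334). Serpina6 stands at one end (103646630 to 103657218), followed by the 5 Serpina1 genes within 228.742 kb (103728156 to 103956897), Serpina12 (104028769 to 104044443) and the Serpina3k to Serpina3n block of 75.849 kb (104338486 to 104414334). Of the 10 genes, 7 are read from the minus strand, and the Serpina3 genes are the 3 on the plus strand. Only Serpina12 overlaps another annotated gene, the long noncoding RNA Gm31271.

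The Serpina1 copies differ most around the loop that meets the protease. Their coding sequences share 96.3% to 98.5% of bases, and only 86 of 1242 coding positions vary among the 5 genes. The stretch from coding base 1101 to 1160, the 60 bases with the most variable positions, holds 18 of them and spans the reactive centre loop. It is shown because it is where copies with nearly the same coding sequence can be told apart. Capitals mark the positions that vary, and the bases are those of GENCODE M1 transcripts.
Serpina1a: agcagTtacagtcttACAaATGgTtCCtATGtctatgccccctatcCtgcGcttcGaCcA
Serpina1b: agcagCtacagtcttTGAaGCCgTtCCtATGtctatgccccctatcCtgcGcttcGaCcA
Serpina1c: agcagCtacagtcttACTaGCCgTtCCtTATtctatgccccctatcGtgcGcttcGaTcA
Serpina1d: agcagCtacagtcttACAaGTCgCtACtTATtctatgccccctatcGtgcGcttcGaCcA
Serpina1e: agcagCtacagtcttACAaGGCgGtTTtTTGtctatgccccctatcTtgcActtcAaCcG
The codon directly before tctatgccc encodes the residue at which a serpin is cut, called P1, which largely sets the protease it recognises. This codon, number 377 of the open reading frame, is ATG in Serpina1a and Serpina1b, TAT in Serpina1c and Serpina1d, and TTG in Serpina1e.

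Outside this window the copies share long stretches, the longest without a difference among the 5 genes running for 226 coding bases, so reads can match several of them. Of all 100-base stretches of its transcripts, Serpina1c had 41.5% that occurred in no other gene, against 67.1% for Serpina1a, 75.4% for Serpina1b, 73.7% for Serpina1d and 85.6% for Serpina1e. Serpina1c and Serpina1a were the closest pair, and 58.0% of the Serpina1c stretches were also found in Serpina1a. The Serpina3 genes were easier to separate, with 93.9% unique stretches in Serpina3k and in Serpina3m and 99.9% in Serpina3n. For Serpina6 and Serpina12 every such stretch was unique. Only protein-coding transcripts were searched, so noncoding genes such as Gm31271, which overlaps Serpina12, were not compared. How the authors' counting treated reads with several matches is not given in the sources used here. The values of single Serpina1 copies are therefore uncertain, and their sum is given beside them.

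**Figure D2:**
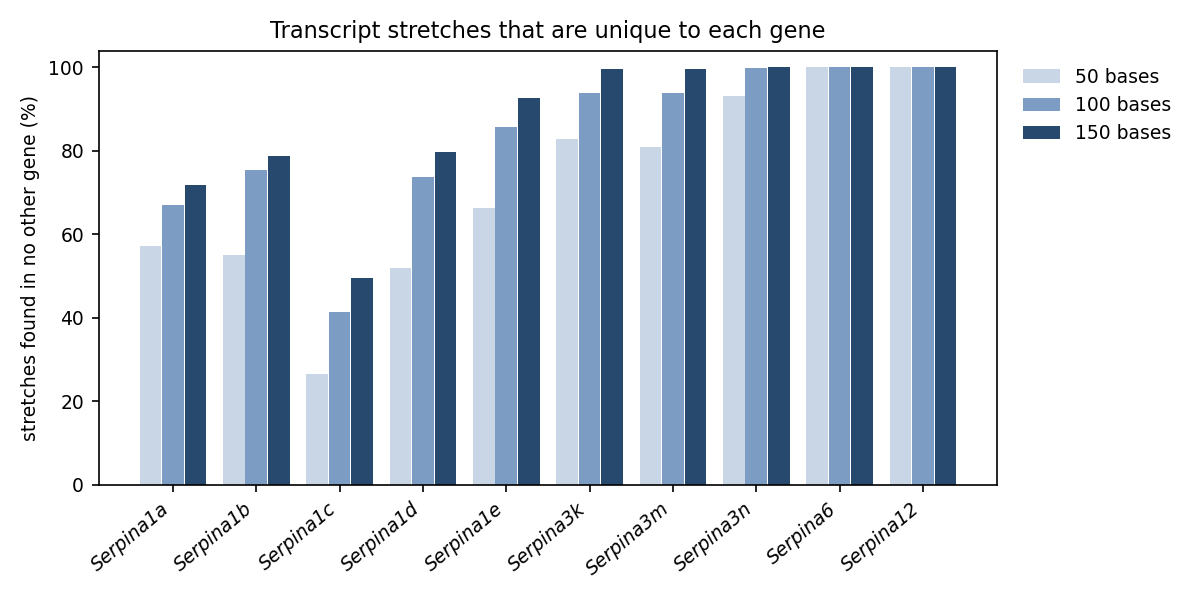
Percentage of the stretches of 50, 100 or 150 bases in each gene's GENCODE M1 transcripts that occur in no other gene's protein-coding transcripts. Serpina1c is lowest at each length (26.7%, 41.5% and 49.5%), whereas Serpina6 and Serpina12 stand at 100% throughout.

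Promoters, from 250 bases before to 50 bases after the annotated start, were read from RefSeq for GRCm38.p6. The table held 7 of the 10 genes, the others being Serpina3k, Serpina3m and Serpina6. Over the 250 upstream bases, Serpina1a, Serpina1b, Serpina1c and Serpina1d matched each other at 84.3% to 91.0%, and Serpina1e matched them at 58.0% to 64.2%. The letters CCAAT were found in 6 of the 7, all but Serpina3n, and in 37.4% of all 32851 promoters of the same length. The letters TTCNNNGAA, the core bound by STAT factors, were in none of the 7 and in 8.30% of all promoters. The windows are set by the annotated starts, and the CCAAT nearest to the start, on the opposite strand, lies at position -82 in Serpina1e and between -31 and -20 in the other 4 copies, so windows of Serpina1e are shifted against theirs. TATAAA was likewise in none and in 13.6% of all promoters. Both strands were searched. The motifs were chosen after the expression values had been seen, and a match describes letters only.

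Levels can be compared between genes only per length of exon, as CPM per kb. In WT livers Serpina1c was highest, at 3705 ± 698 CPM per kb (SD, n = 3). Serpina1b followed at 3026 ± 31.5, Serpina3k at 2593 ± 899, Serpina1d at 1417 ± 143 and Serpina1a at 925 ± 116 CPM per kb. Serpina1e stood at 308 ± 310, Serpina6 at 209 ± 53.9, Serpina3n at 165 ± 55.1, Serpina3m at 158 ± 68.5 and Serpina12 at 12.4 ± 3.35 CPM per kb. Of neighbours in this order, Serpina1b and Serpina3k overlapped between livers, as did each adjacent pair from Serpina1e to Serpina3m. The vaspin gene was thus the least abundant member per length, below every other member in all 3 WT livers.

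The order of the means was the same in the 4 TET1 KO livers. Serpina1d (1289 ± 254 CPM per kb), Serpina1a (1275 ± 141) and Serpina1e (1252 ± 875) stood at nearly the same mean there and overlapped. Serpina1b and Serpina3k overlapped there too, as did Serpina3n and Serpina3m. Serpina12 remained last, at 33.5 ± 10.3 CPM per kb. These values rest on annotated exon lengths, 2264 bases for Serpina1a and 1394 for Serpina1d, and the annotation used for counting is not given. Without division by length, the mean of Serpina1a was above that of Serpina1d. It was 2886 against 1797 CPM in TET1 KO livers, and 2093 against 1975 CPM, with overlap, in WT livers. Since reads can also match several of the 5 Serpina1 genes, the places of single copies in these orders are uncertain.

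The alpha1-antitrypsin genes come first. Alpha1-antitrypsin protects tissue from neutrophil elastase and similar enzymes, but the mouse copies differ at P1, so this role may not hold for all 5. Summed over the 5 copies, WT replicates 1 to 3 had 12777, 12914 and 15790 CPM. TET1 KO replicates 1 to 4 had 16569, 20919, 19450 and 15414 CPM. The groups overlapped through WT replicate 3 and TET1 KO replicate 4. The TET1 KO mean of 18088 ± 2538 CPM (SD, n = 4) was 1.31 times the WT mean of 13827 ± 1701 CPM (SD, n = 3). The sum took 1.33% to 1.98% of all counts of a library. Dividing reads between copies in another way leaves the sum unchanged, but dropping reads with several matches, or counting them once per match, would change it.

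Serpina1a, a copy with an ATG codon at P1, had 2076, 1839 and 2365 CPM in the WT livers. In the TET1 KO livers it had 2725, 3205, 3095 and 2518 CPM, each above every WT value. The log2 fold change was 0.46 (standard error, SE, 0.21, adjusted p = 0.197 in edgeR's quasi-likelihood test), so the gene was not called. DESeq2 did call it (log2 fold change 0.44, adjusted p = 0.0429), and called no other member but Serpina12. DESeq2 called 4.13% of the genes it tested higher and 4.56% lower. Of the 10 members, 2 had every TET1 KO liver above every WT liver, Serpina1a and Serpina12, and none had every TET1 KO liver below. Over all tested genes these patterns were found in 11.7% and 10.8%.

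Serpina1b, the other copy with ATG at P1, was the steadiest gene in WT livers, at 4257, 4228 and 4171 CPM. The TET1 KO livers had 3833, 4873, 4899 and 4511 CPM, on both sides of the WT values. Its log2 fold change was 0.10 (SE 0.24, adjusted p = 0.803), with a 95% interval from -0.42 to 0.62.

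Serpina1c, the most abundant copy, had 4472, 4514 and 6139 CPM in WT livers and 6774, 7050, 7667 and 5917 CPM in TET1 KO livers. Only WT replicate 3 reached into the TET1 KO range. The log2 fold change of 0.44 (SE 0.27) had an adjusted p of 0.318 in edgeR's test. It is the copy with the fewest unique stretches, and most of those it shares are shared with Serpina1a.

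Serpina1d, like Serpina1c a copy with TAT at P1, had 1752, 2135 and 2038 CPM in WT livers. It had 1273, 1922, 1948 and 2046 CPM in TET1 KO livers, with replicate 1 alone far below the others. The log2 fold change was -0.14 (SE 0.22, adjusted p = 0.715).

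Serpina1e, the copy with TTG at P1, varied far more than the others. It had 220 and 197 CPM in WT replicates 1 and 2 but 1077 CPM in WT replicate 3. In TET1 KO replicates 1 to 3 it had 1964, 3870 and 1840 CPM, and in replicate 4 only 423 CPM. Within WT the highest liver was thus 5.46 times the lowest, and within TET1 KO 9.15 times, whereas for the other 4 copies these ratios lay between 1.02 and 1.61. WT replicate 3 stood above TET1 KO replicate 4, so that the groups overlapped. The log2 fold change was 2.02, the largest of the 10, with a standard error of 0.74 and a 95% interval from 0.40 to 3.64. The adjusted p was 0.123 in edgeR's test and 0.149 in DESeq2, so it was called by neither. Single mice moved the value: it was 1.49 without TET1 KO replicate 2 (adjusted p = 0.235), 3.26 without WT replicate 3 (adjusted p = 0.0539) and 2.36 without TET1 KO replicate 4 (adjusted p = 0.0493), where alone of the 7 leave-outs edgeR called it.

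**Figure D3:**
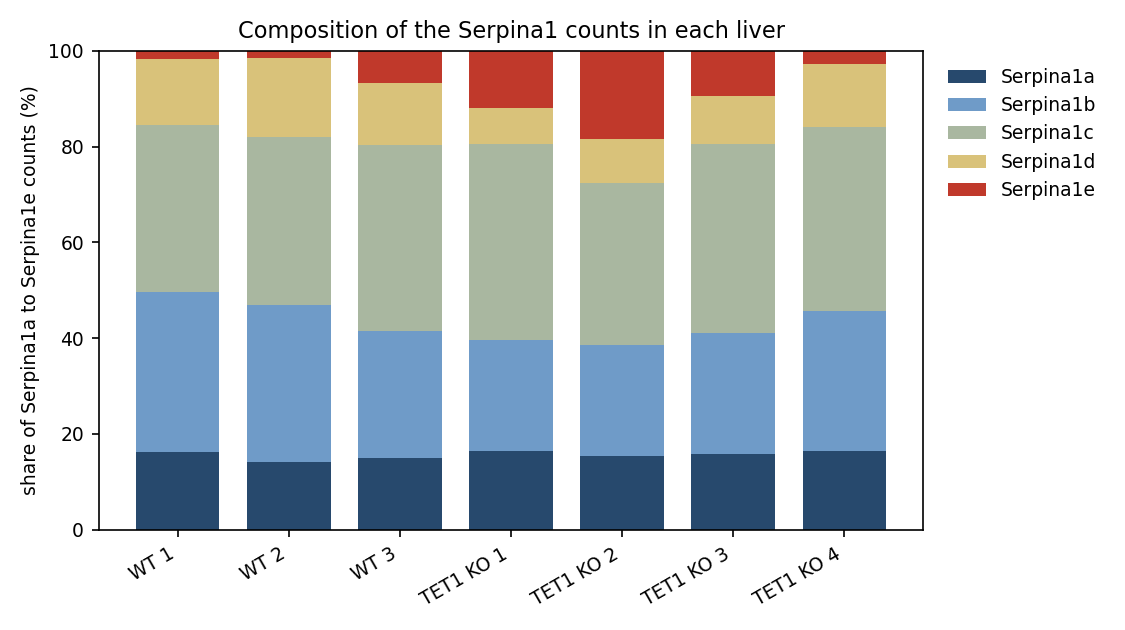
Stacked bars give the share of each Serpina1 gene in the summed Serpina1a to Serpina1e counts of each liver, in percent. The Serpina1e segment at the top covers 1.53% to 6.82% in WT and 2.74% to 18.5% in TET1 KO livers, while Serpina1a stays between 14.2% and 16.4%.

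The makeup of the Serpina1 counts was compared within each liver, where library scaling plays no part. Counts were not divided by exon length here, so the shares are of reads and not of RNA molecules. Serpina1e took 1.72%, 1.53% and 6.82% of the Serpina1 counts in WT livers and 11.9%, 18.5%, 9.46% and 2.74% in TET1 KO livers. Serpina1a kept a nearly constant share of 14.2% to 16.4%. Serpina1c took the largest share in every liver, 33.7% to 40.9%. Serpina1b took between 23.1% and 33.3%, and Serpina1d between 7.68% and 16.5%. No share of a Serpina1 copy separated the genotypes. These shares were not tested.

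The Serpina3 genes encode relatives of alpha1-antichymotrypsin, and Serpina3n is well known as an acute phase gene. Serpina3k, by far the most abundant of the 3, had 2929, 4060 and 5877 CPM in WT livers and 5835, 4424, 4308 and 4526 CPM in TET1 KO livers. The WT livers spanned the whole TET1 KO range. Its log2 fold change was 0.15 (SE 0.29, adjusted p = 0.760).

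Serpina3m had 159, 384 and 241 CPM in WT livers and 111, 167, 143 and 235 CPM in TET1 KO livers (log2 fold change -0.67, SE 0.30, adjusted p = 0.179). Serpina3n had 219, 361 and 444 CPM in WT livers and 173, 262, 184 and 293 CPM in TET1 KO livers, at a log2 fold change of -0.58 (SE 0.25, adjusted p = 0.174). In both genes WT replicate 1 lay inside the TET1 KO range, and neither was called. Without WT replicate 2 the log2 fold change of Serpina3m was -0.29 (adjusted p = 0.638).

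Within the summed counts of the 3 genes, Serpina3n took 6.62%, 7.52% and 6.76% in WT livers. In TET1 KO livers it took 2.82%, 5.40%, 3.97% and 5.80%, each below every WT value. It was the only one of the 8 shares, counted over both families, whose groups did not overlap. Over all tested genes, 11.7% had every TET1 KO liver above every WT liver and 10.8% had every one below. Shares within a family depend on each other, so they cannot be set directly against single genes. The difference in this share was not tested. Serpina3k took 84.5% to 95.4% of these counts and Serpina3m 1.81% to 7.99%. The sum of the 3 genes had a TET1 KO mean 1.06 times that of WT, with overlapping livers.

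Acute phase genes, which the liver raises in inflammation, moved strongly between single mice. The summed level of 23 of them was 17497, 20100 and 50872 CPM in WT replicates 1 to 3 and 12818, 31760, 15223 and 28358 CPM in TET1 KO replicates 1 to 4. WT replicate 3, the highest, also had the highest Serpina3n and Serpina3k, and TET1 KO replicate 1, the lowest, had the lowest Serpina3n but the second-highest Serpina3k. With single mice left out, the Serpina3n log2 fold change lay between -0.83 (without WT replicate 1, adjusted p = 0.0708) and -0.37 (without WT replicate 3, adjusted p = 0.432). The part of the acute phase in the Serpina3 values was not tested. Of the 23 genes edgeR called none, and DESeq2 called 1 higher, the interleukin 6 receptor gene Il6ra, at 45.1 ± 9.94 CPM in WT and 80.7 ± 31.2 CPM in TET1 KO livers (SD, adjusted p = 0.0948 in edgeR and 0.0371 in DESeq2). Over the list 4 had a positive log2 fold change, and their median was -0.42. Haptoglobin, Hp, the most abundant, had 6618 ± 5188 CPM in WT and 6013 ± 3548 CPM in TET1 KO livers (SD, adjusted p = 0.895 in edgeR's test).

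Serpina6, the carrier of corticosterone in plasma, did not separate the genotypes. It had 447, 395 and 263 CPM in WT livers and 253, 429, 387 and 427 CPM in TET1 KO livers, so that each group held 1 liver below the others. The log2 fold change was 0.02 (SE 0.23, adjusted p = 0.960), with a 95% interval from -0.48 to 0.52. Its sign was negative under 9 of 15 alternative settings. Of 13 genes of glucocorticoid handling and response, edgeR called none and DESeq2 called 1 lower, the metallothionein gene Mt2. Mt2 had 5.17, 3.90 and 26.7 CPM in WT livers and 1.50, 2.47, 2.40 and 2.60 CPM in TET1 KO livers (adjusted p = 0.0590 in edgeR and 0.0228 in DESeq2), with WT replicate 3 far above the rest. Mt1, with 17.03, 12.6 and 62.5 CPM in WT and 5.64, 14.5, 6.96 and 10.2 CPM in TET1 KO livers, was likewise highest in WT replicate 3, overlapped between groups and was called by neither. Pck1 of glucose production had 1343 ± 371 CPM in WT and 1450 ± 473 CPM in TET1 KO livers (SD). Tat, a classical glucocorticoid target, had 652 ± 220 and 624 ± 244 CPM, and Errfi1 739 ± 241 and 670 ± 202 CPM.

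Serpina12 was the called member. WT livers had 50.2, 32.0 and 55.6 CPM, and TET1 KO livers had 175.8, 122.8, 85.2 and 110.7 CPM. The groups did not overlap, the lowest TET1 KO liver being 85.2 CPM. The means were 45.9 ± 12.4 CPM (SD, n = 3) and 123.6 ± 38.2 CPM (SD, n = 4), resting on 772 to 2808 counts per library. The log2 fold change was 1.43 (SE 0.26, adjusted p = 0.0221 in edgeR's quasi-likelihood test), with a 95% interval from 0.87 to 1.99. Serpina12 ranked 115 by p among all tested genes.

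The call for Serpina12 held in 13 of 15 alternative settings, and the log2 fold change lay between 1.21 and 1.57 in all of them. It was lost without WT replicate 2, the lowest liver (1.22, adjusted p = 0.118), and without TET1 KO replicate 2 (1.42, adjusted p = 0.0554).

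**Figure D4:**
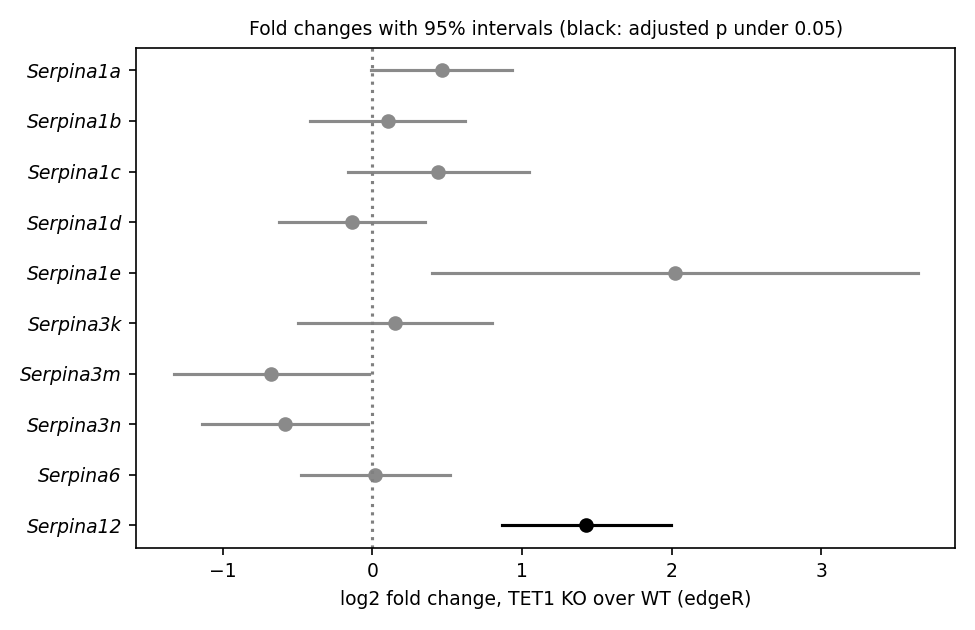
Log2 fold changes of TET1 KO over WT from edgeR for the 10 genes, with lines for 95% intervals and black for an adjusted p under 0.05. Serpina12 at 1.43 is the only black point, and the interval of Serpina1e, from 0.40 to 3.64, is the widest.

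Because vaspin is also made in fat, adipocyte markers were read beside it. Adiponectin, Adipoq, was counted 0, 9 and 0 times in WT and 0, 60, 0 and 0 times in TET1 KO livers. Plin1, a coat protein of fat cell lipid droplets, had 0, 4 and 0 counts and 1, 70, 0 and 0 counts. But for 1 Plin1 count, these traces lay in WT replicate 2, which had the lowest Serpina12, and TET1 KO replicate 2, which had the second-highest. The summed level of the 6 adipocyte markers was 17.2, 27.9 and 3.81 CPM in WT livers and 1.44, 23.0, 1.64 and 1.62 CPM in TET1 KO livers, so the groups overlapped through TET1 KO replicate 2 alone. In TET1 KO replicate 2 Cfd was the highest of them, at 8.59 CPM, followed by Plin1 (4.93 CPM) and Adipoq (4.23 CPM). Cidec, which fatty hepatocytes also express, had 13.9, 24.7 and 1.71 CPM in WT and 1.13, 3.66, 1.02 and 1.35 CPM in TET1 KO livers, with WT replicate 3 inside the TET1 KO range, and was called lower by DESeq2 (adjusted p = 0.0272) but not by edgeR (0.0550). Without TET1 KO replicate 2 the log2 fold change of Serpina12 was 1.42 and was no longer called (adjusted p = 0.0554). The part of fat cells in the Serpina12 values was not tested.

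The summed level of bile duct markers separated the genotypes. It was 29.7 to 37.9 CPM in WT and 46.2 to 68.0 CPM in TET1 KO livers. Of the 6, 5 were tested, all had positive log2 fold changes, and none was called by edgeR while DESeq2 called Sox9 and Epcam higher. Epcam had 0.49, 0.54 and 0.28 CPM in WT and 0.69, 0.99, 0.82 and 4.87 CPM in TET1 KO livers, without overlap but with replicate 4 far above the rest, and Krt19 and Krt7 were also highest there. The separated sum was mostly Spp1 and Sox9. Cftr, a defining marker, had 0 to 5 counts. Spp1 had 24.4 ± 4.67 CPM in WT and 36.5 ± 6.03 CPM in TET1 KO livers (SD). The part of bile duct cells in the Serpina12 difference was not tested.

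**Figure D5:**
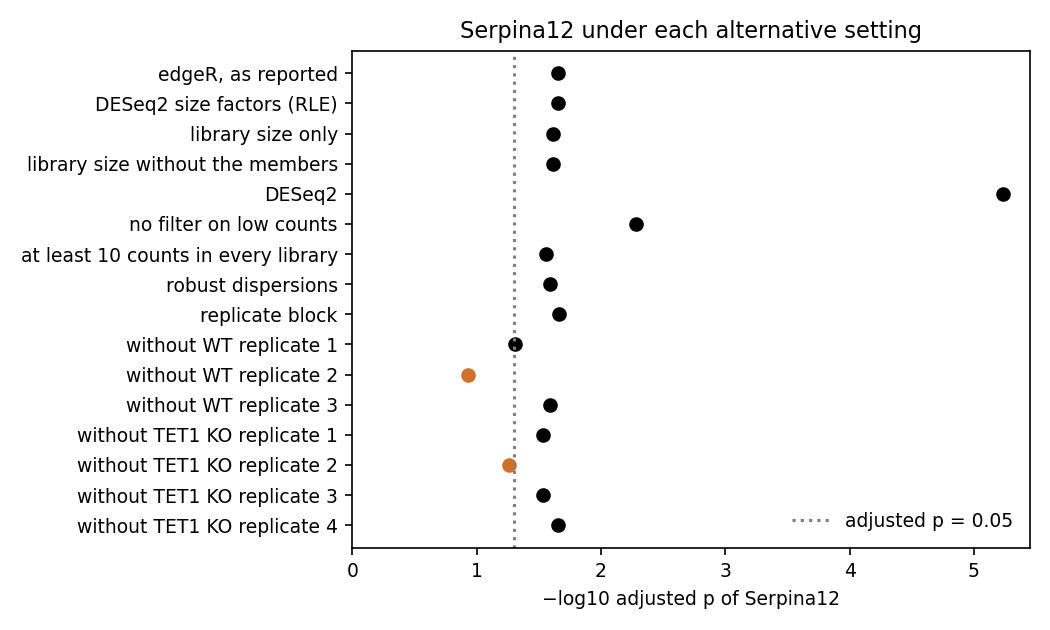
Minus log10 of the adjusted p of Serpina12 under the reported fit and 15 alternative settings, with a dotted line at 0.05. Orange points, without WT replicate 2 and without TET1 KO replicate 2, fall short of the line, and DESeq2 lies farthest beyond it (adjusted p = 5.82e-06).

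The genes whose profile over the 7 livers lay closest to Serpina12, by the root-mean-square difference of centred log2 CPM, were Gm8451 (0.14), 6430590A07Rik (0.18) and the clock-related repressor gene Bhlhe41 (0.19). For the summed Serpina1 genes they were Meiob (0.064), the gap junction gene Gjb1 (0.081) and the steroid dehydrogenase gene Hsd17b2 (0.083). Serpina1e, examined after its values were seen, had no such close match. Its nearest gene was Enho, which encodes the secreted peptide adropin, at a difference of 0.63.

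The other genes of the serpin system were read from 8 lists, of which 100 of 116 genes were tested, 2 were called higher and 1 lower by edgeR, and 6 higher and 2 lower by DESeq2. Of 17 further clade A genes, 8 were tested and neither tool called any. Angiotensinogen, Agt, a serpin that serves as a hormone precursor, had 710 ± 77.1 CPM in WT and 893 ± 145 CPM in TET1 KO livers (SD, log2 fold change 0.33, adjusted p = 0.263 in edgeR's test). Serpina10, which restrains coagulation factor X, had 188 ± 60.1 and 183 ± 39.1 CPM. Serpina7, the thyroxine carrier, had 88.8 ± 14.3 and 68.0 ± 15.8 CPM.

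Serpina4-ps1, named after its values were seen, also varied widely between livers. This pseudogene had 10.5, 9.49 and 66.2 CPM in WT livers and 151.1, 12.5, 14.3 and 28.5 CPM in TET1 KO livers. WT replicate 3 was the highest WT liver and TET1 KO replicate 1 was high for both genes, but TET1 KO replicate 2, the highest for Serpina1e, was the lowest TET1 KO liver for Serpina4-ps1.

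Of 13 tested serpins from other clades, both tools called Serpine2 higher and Serpinb8 lower. Serpine2, an inhibitor of thrombin and plasminogen activators, had 3.84, 2.98 and 3.48 CPM in WT livers and 9.02, 15.7, 16.2 and 12.9 CPM in TET1 KO livers. Its groups did not overlap, and its log2 fold change was 1.97 (SE 0.23, adjusted p = 0.00366 in edgeR's test). Serpinb8, an intracellular inhibitor, had 6.79, 6.34 and 3.42 CPM in WT and 1.82, 1.62, 2.10 and 2.23 CPM in TET1 KO livers, a fitted ratio of 0.354 (adjusted p = 0.0214 in edgeR's test). The abundant plasma serpins were not called. Serpinc1, which encodes antithrombin, had 1688 ± 51.8 CPM in WT and 1611 ± 296 CPM in TET1 KO livers (SD).

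Of 9 tested proteases that serpins control, edgeR called F11 higher and DESeq2 called 4 higher, F11, Klkb1, Proc and Hgfac, with every TET1 KO liver above every WT liver in each. Over all tested genes, edgeR called 0.874% and DESeq2 4.13% higher, and 11.7% had every TET1 KO liver above every WT liver. F11, coagulation factor XI, had 33.4, 29.6 and 44.0 CPM in WT livers and 78.5, 86.1, 89.0 and 54.5 CPM in TET1 KO livers, with no overlap. Its log2 fold change was 1.11 (SE 0.20, adjusted p = 0.0218 in edgeR's test). Klkb1, plasma prekallikrein, had 240 ± 35.6 CPM in WT and 401 ± 66.3 CPM in TET1 KO livers (SD, adjusted p = 0.0569 in edgeR and 0.00301 in DESeq2). Proc, the anticoagulant protein C, had 454 ± 43.3 and 639 ± 44.7 CPM (adjusted p = 0.0874 in edgeR and 0.0109 in DESeq2). Hgfac, the activator of hepatocyte growth factor, had 231 ± 26.4 and 330 ± 43.1 CPM (adjusted p = 0.0844 in edgeR and 0.0272 in DESeq2). Plasminogen, Plg, had 1857 ± 290 CPM in WT and 1916 ± 355 CPM in TET1 KO livers (SD), and prothrombin, F2, had 1396 ± 152 and 1200 ± 346 CPM.

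Neither tool called any of 13 hepatocyte transcription factors, although 8 of the 13 log2 fold changes were positive. Hnf4a had 407 ± 61.5 CPM in WT and 441 ± 23.0 CPM in TET1 KO livers (SD). Cebpa had 336 ± 19.4 and 408 ± 12.2 CPM, with every TET1 KO liver above every WT liver and an adjusted p of 0.200 in edgeR's test. Neither tool called any of 14 genes that fold, export or degrade secretory proteins such as serpins, among them Calr at 1047 ± 184 and 1184 ± 245 CPM and Hspa5, the chaperone BiP, at 823 ± 210 and 598 ± 197 CPM. Of 8 genes flanking the cluster, 7 were tested and neither tool called any. The most abundant, Clmn, had 108 ± 7.97 CPM in WT and 125 ± 18.7 CPM in TET1 KO livers (SD, adjusted p = 0.376 in edgeR's test).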

How the data were processed

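Liver RNA of 3 WT and 4 TET1 KO mice on an HFD was analysed from 1 count table per mouse. The authors deposited whole-number counts per Ensembl gene, not normalized, and the submitters' processing notes name Trimmomatic 0.36, GSNAP, featureCounts 1.5.3 and GRCm38. The counting options, the treatment of reads with several matches and the annotation release are not given in the sources used here. The library protocol marks strand, but whether strand was used in counting is not given, so Serpina12 and Gm31271, which overlap, may share reads.

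Genes were joined by Ensembl identifier. Of 51431 entries, 5 repeated an identifier and were left out, and 24623 genes had a count. In R 4.3.3, edgeR 4.0.16 kept 14754 genes (filterByExpr), scaled libraries by TMM and applied the quasi-likelihood test over all 7 livers without covariates, with Benjamini-Hochberg adjustment and calls at an adjusted p under 0.05. The common biological coefficient of variation was 0.208. DESeq2 1.42.0 tested 15148 genes as an alternative. Both tools were tried on simulated counts for this comparison, with 200 genes changed by 1.5 on the log2 scale. There edgeR recovered 195 with 9 false calls among 14465 genes tested, whereas DESeq2 recovered 195 with 26 false calls among 13895 genes. The simulated spread came from edgeR's own fit, and genes of low level were not among those changed. These rates may therefore not hold for the real livers. Log2 CPM used a prior count of 2. Libraries of 1 genotype differed by more than sampling noise, with a chi-square per degree of freedom of at least 26.4. The study describes its WT mice as littermate controls, but the labels tie no mouse to a litter. The p-values set the difference between genotypes against the spread between these mice, taken as independent.

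Exon lengths, coding sequences and transcript stretches came from GENCODE M1, positions and promoters from RefSeq for GRCm38.p6, which is the build of the notes. Sequences were aligned with Biopython 1.88 and figures drawn with matplotlib 3.10.9. The members and gene lists were chosen with earlier results of these data known. All 10 members are described. Some genes and 1 motif search are not reported here. Of each list outside the cell type markers the called genes and at most 3 of the most abundant others are named. Among the markers of cell types other than bile duct and fat cells, edgeR called no gene and DESeq2 called Apoa1 higher and Lyve1 and Col1a1 lower. Genes called only by DESeq2, and Mt1, were named after their values were seen. The alternatives were DESeq2, its size factors, library size with and without the members, no filter, a minimum of 10 counts per library, a block by replicate number, robust dispersions, and leaving out each mouse.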

Additional observations from a re-analysis of the deposited data

Results flagged for a closer look

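In 2 of 23 sets of 4 TET1 KO values, 1 liver stood apart by Dixon's criterion for 4 samples, which chance passes in about 1 of 20 groups. For Serpina1d CPM the gap to the nearest liver was 0.8394 of the whole range, since TET1 KO replicate 1 had 1273 CPM and the other 3 livers 1922 to 2046 CPM. For Serpina3k CPM the gap was 0.8571 of the range, with TET1 KO replicate 1 at 5835 CPM and the others at 4308 to 4526 CPM. Both came from the same liver, which also had the highest Serpina12. Without it, the log2 fold changes of Serpina1d and Serpina3k were -0.0013 and 0.044, and neither was called.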

How the results depend on the processing

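The 15 alternatives left Serpina12 higher in TET1 KO livers in each fit, with log2 fold changes from 1.21 to 1.57, and called in 13. With 1 member called higher and 0 lower as reported, the number called higher was 2 under DESeq2 (Serpina1a, 0.44, adjusted p = 0.0429) and 2 under the replicate block. With the replicate number as a block, Serpina1e (2.79, adjusted p = 0.0392) joined Serpina12, and 1 member, Serpina3m (-0.83, adjusted p = 0.0296), was called lower. No source used here says that the numbers pair the mice. Same-numbered WT and TET1 KO livers correlated at 0.21, -0.12 and -0.096 in their deviations from the group means. Differently numbered ones lay between -0.30 and 0.31, and so few livers cannot decide whether the numbers pair mice. Leaving out single mice gave 0 to 2 members called higher and 0 called lower. The call on Serpina12 was lost without WT replicate 2 (adjusted p = 0.118) and without TET1 KO replicate 2 (adjusted p = 0.0554), and without TET1 KO replicate 4 Serpina1e was called (2.36, adjusted p = 0.0493). Serpina1e lay between 1.49 (without TET1 KO replicate 2) and 3.26 (without WT replicate 3), and Serpina3m between -0.94 (without WT replicate 1) and -0.29 (without WT replicate 2), neither called in those fits. The cause was not tested.

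Serpina6 turned negative under library size only (-0.078), library size without the members (-0.072), DESeq2 (-0.0035), no filter (-0.0067) and the replicate block (-0.046), and lay between -0.19 and 0.17 when single mice were left out. The mice that turned it were WT replicate 3 (-0.19) and TET1 KO replicates 2 (-0.066), 3 (-0.0091) and 4 (-0.049). Serpina3k turned negative without WT replicate 1 (-0.067) and reached 0.43 without WT replicate 3. No other member changed sign under any alternative. The Serpina3 sum, at a log2 ratio of 0.079, was -0.0085 with library size only and -0.0049 with library size without the members. When single mice were left out, the log2 ratio lay between 0.30 and 0.47 for the Serpina1 sum and between -0.15 and 0.33 for the Serpina3 sum.

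Over all genes, 129 were called higher and 169 lower as reported, against 626 and 690 under DESeq2, 245 and 347 without a filter, 670 and 656 under the block, 107 and 312 with library size only and 106 and 293 with library size without the members. Without WT replicate 2 the counts were 16 and 22, without WT replicate 3 68 and 156, and without TET1 KO replicates 1 to 4 82 and 105, 45 and 59, 31 and 48, and 427 and 464. Each member had at least 772 counts in each library. The values of single Serpina1 copies stay uncertain, since reads can match several of them, and the effect of such reads was not tested.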
